A study of Mus musculus with 6 samples.

Results

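The tumour necrosis factor (TNF) ligand and receptor superfamilies were followed in mouse kidney RNA on 6 single-colour arrays, by genotype and after ischaemia/reperfusion injury. Members were taken by gene name as the arrays give it: every non-control probe named Tnf, Tnfsf or Tnfrsf with any suffix, or Fas, Fasl, Cd40, Lta, Ltb or Ltbr. This gave 53 of 41174 probes, for 37 genes, made up of 14 ligands and 23 receptors. Of the 37 genes, 29 were well above background on at least 2 of the 6 arrays and were tested, among 19611 genes tested in all. Of the members, 15 were above background on all 6 arrays and 6 on none.

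Ligands of this superfamily are made as trimeric transmembrane proteins, some of which are cut from the cell surface, and they signal by clustering their receptors. Receptors with a cytoplasmic death domain can assemble caspase-activating complexes, receptors without one recruit TRAF adaptors and switch on NF-kB and MAP kinases, and decoy receptors bind ligand without passing on a full signal. In the kidney, TNF and its relatives are known from tubular cell death, from leukocyte recruitment and from the response of tubular cells to injury.

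All samples were kidneys of mice labelled male. The labels give 1 Gpr97-deficient kidney after renal ischaemia/reperfusion injury (IRI), 2 wild-type kidneys after IRI, 1 Gpr97-deficient kidney after a sham operation and 2 wild-type sham kidneys. Gpr97, now named Adgrg3, encodes an adhesion G protein-coupled receptor; neither the strain and age nor the way the deficiency was made is in the labels, and they give no ischaemia or reperfusion time. Whether samples of a group came from separate animals is not labelled either, so p-values measure the spread between these arrays. That spread may be technical in part. The 2 wild-type injured arrays differed in sex-linked genes, as given below, so they did not hold the same RNA.

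Levels are log2 signals relative to the 75th percentile of the same array, so a level of 0 lies at that percentile and a difference of 1 is a 2-fold difference; levels of different probes cannot be set against each other. Between 62.9% and 71% of probes were well above background per array, and no spot was saturated. Adgrg3 lay at -5.71 in the Gpr97-deficient injured kidney and -5.34 in the Gpr97-deficient sham kidney, against 1.10 and 1.25 in the wild-type injured and 0.24 and 0.05 in the wild-type sham kidneys. The kidney markers Lrp2, Slc34a1 and Umod were above background on all 6 arrays. Replicate 1 of the wild-type injured group went against its male label: Xist lay at 4.10 there and was not above background on the other 5 arrays, while Kdm5d, Ddx3y, Eif2s3y and Uty were not above background on that array alone. The changes of members whose injured and sham arrays did not overlap, apart from Tnfrsf23, are therefore also given without it. Most other values include it. Slide 1 held replicate 1 of the wild-type sham and replicate 2 of the wild-type injured group, and slide 2 held the other 4 arrays, so there were 3 injured-minus-sham pairs within a slide, 1 Gpr97-deficient and 2 wild-type.

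The promoters below are those of 4 of the members whose injured and sham arrays did not overlap: Tnfrsf12a and Tnfrsf1a, which were higher on all 3 injured arrays, and Tnfrsf11a and Tnfsf10, which were lower on all 3. Each is 300 bases around the annotated start, mostly upstream, 5′ to 3′ on the gene's strand, from RefSeq on GRCm38.p6. Capitals mark matches to GGGNNNNNCC, the loose form of the NF-kB binding sequence, searched on both strands.
Tnfrsf12a promoter, chr17:23677400-23677699, minus strand: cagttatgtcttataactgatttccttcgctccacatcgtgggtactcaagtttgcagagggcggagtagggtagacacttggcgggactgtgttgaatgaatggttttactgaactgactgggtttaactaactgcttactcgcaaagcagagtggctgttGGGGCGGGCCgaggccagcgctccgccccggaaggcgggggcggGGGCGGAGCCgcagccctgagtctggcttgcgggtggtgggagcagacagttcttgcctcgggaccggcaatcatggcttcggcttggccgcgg
Tnfrsf1a promoter, chr6:125349473-125349772, plus strand: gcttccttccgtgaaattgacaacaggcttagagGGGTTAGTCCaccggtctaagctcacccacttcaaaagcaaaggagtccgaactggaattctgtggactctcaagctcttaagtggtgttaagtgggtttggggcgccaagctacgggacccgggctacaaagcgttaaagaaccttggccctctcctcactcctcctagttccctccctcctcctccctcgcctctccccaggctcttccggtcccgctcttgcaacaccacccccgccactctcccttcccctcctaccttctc
Tnfrsf11a promoter, chr1:105780473-105780772, plus strand: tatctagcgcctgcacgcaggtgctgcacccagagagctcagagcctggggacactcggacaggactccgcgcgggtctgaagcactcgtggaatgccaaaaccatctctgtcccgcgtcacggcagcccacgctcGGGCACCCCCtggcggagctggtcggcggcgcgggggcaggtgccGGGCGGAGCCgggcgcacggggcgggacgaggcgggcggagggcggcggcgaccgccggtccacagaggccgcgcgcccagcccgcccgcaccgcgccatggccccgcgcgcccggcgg
Tnfsf10 promoter, chr3:27316827-27317126, plus strand: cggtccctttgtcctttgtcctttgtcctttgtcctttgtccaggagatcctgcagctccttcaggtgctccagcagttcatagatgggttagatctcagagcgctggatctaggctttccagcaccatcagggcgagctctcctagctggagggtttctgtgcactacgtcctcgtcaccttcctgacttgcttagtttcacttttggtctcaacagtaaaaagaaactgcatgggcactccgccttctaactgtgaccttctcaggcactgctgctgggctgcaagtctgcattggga

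The Tnfrsf12a promoter held 2 such matches, the Tnfrsf1a promoter 1, the Tnfrsf11a promoter 2 and the Tnfsf10 promoter 0, and the promoter of Tnfrsf23, not shown, held 1. None of these 5 held TGANTCA, the core of the AP-1 binding sequence. The loose NF-kB sequence is common: it was found in 50.8% of all 32851 promoters of this length and in 20 of 33 promoters of the 29 members that could be matched by symbol (60.6%). TGANTCA was in 7.81% of all promoters and 6 of those 33 (18.2%). A match is a stretch of letters and not a measured binding site.

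The first question was which members differed between injured and sham kidneys. Injured and sham arrays did not overlap for 7 members, beside 10.1% of all genes wholly above and 12.4% wholly below. Of these 7, 6 were receptors and 1 a ligand, where 10 of the 29 tested members were ligands. The TWEAK receptor Tnfrsf12a, the TNF receptor Tnfrsf1a, the TRAIL receptor Tnfrsf10b and the decoy receptors Tnfrsf22 and Tnfrsf23 were higher on all 3 injured arrays than on any sham array. Tnfrsf11a (RANK) and the ligand Tnfsf10 (TRAIL) were lower on all 3, but their changes turned to 0.09 each under another background correction. None of the 29 members, and 0% of all genes, passed an adjusted p under 0.05 in limma's test of injury over both genotypes with Benjamini-Hochberg adjustment.

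By separation of the arrays, 5 of 29 members lay wholly above and 2 wholly below, beside 10.1% and 12.4% of all genes. At an unadjusted p under 0.05, limma's test had 4 members higher and 2 lower, beside 5.77% and 6.51% of all genes. Tnfrsf23 is in both counts of higher members, but only 2 arrays, both injured, measured it above background. It passed the filter through the injured group alone, which favoured its place in these counts. With all dim signals raised to one floor, 4 members lay wholly above, without Tnfrsf23. Tnfrsf12a was the single member at least 2-fold higher in each of the 3 pairs, beside 1.19% of all genes, and 0 members were at least 2-fold lower in each, beside 0.76%. The median change over the 29 members was 0.07 on the log2 scale, against -0.04 over all genes. The 3 pairs had the same sign, higher, for 9 members and, lower, for 5, beside 19.6% and 25.3% of all genes. The 9 include Tnf and Tnfrsf23, which no sham array measured above background.

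**Figure D1:**
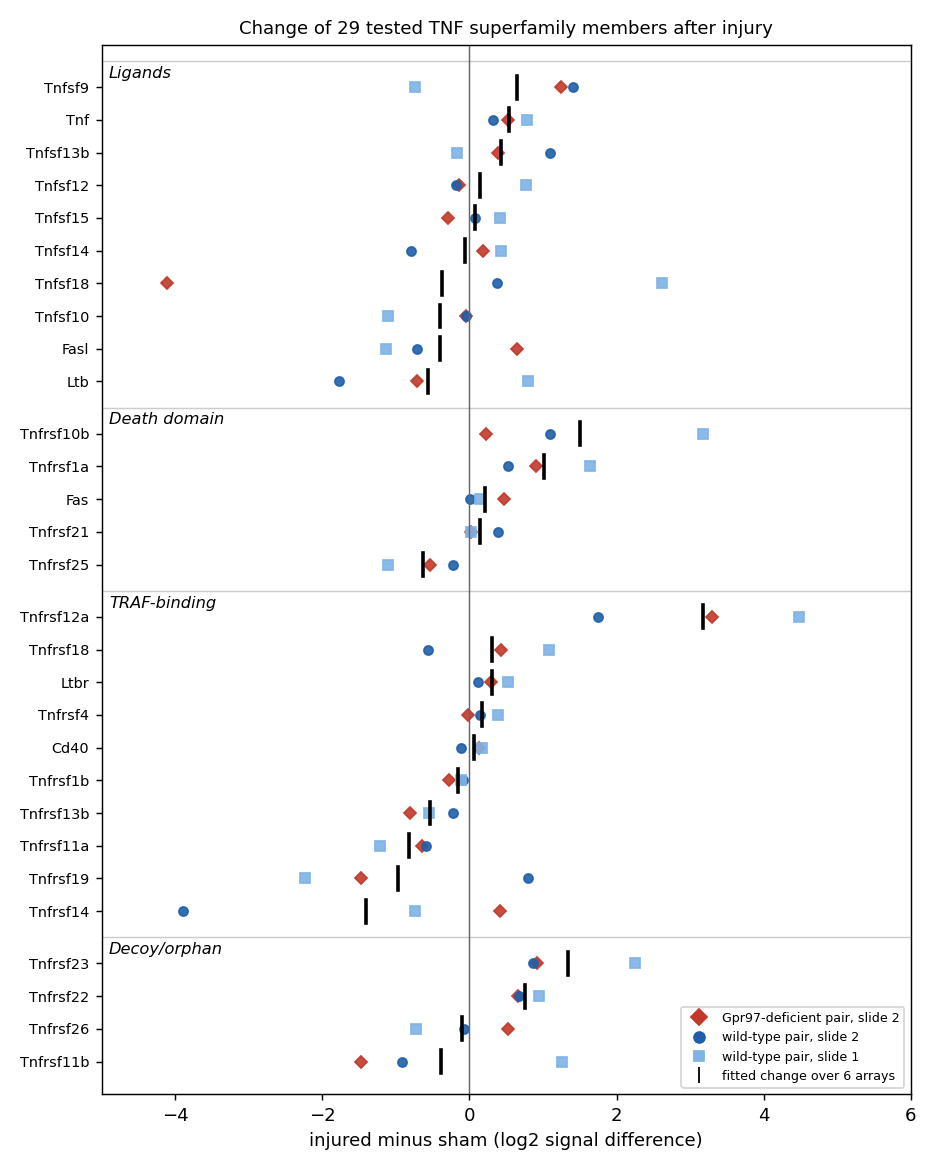
Injured minus sham log2 signal (horizontal axis) of the 29 tested members, grouped by role, for the Gpr97-deficient pair and the wild-type pairs of slides 2 and 1 (points) and the fit over 6 arrays (bars). Tnfrsf12a stands at 3.30, 1.75 and 4.48, all other fitted changes lie between -1.41 and 1.50, and most ligands have points on both sides of 0.

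Tnfrsf12a, also called Fn14, binds the ligand TWEAK and is known as a receptor induced in injured epithelium. Its signal was 5.10 in the Gpr97-deficient injured kidney and 3.57 and 5.80 in the wild-type injured kidneys, against 1.81 in the Gpr97-deficient sham kidney and 1.33 and 1.82 in the wild-type sham kidneys. The groups did not overlap, and the lowest injured array was replicate 1 of the wild type. The means were 4.82 ± 1.14 after injury and 1.65 ± 0.28 after sham (SD, n = 3 each, both genotypes together). The difference was 3.17 (SE 0.61) on the log2 scale, or 9.02-fold, with an adjusted p of 0.262 in limma (unadjusted p = 0.00329). It was 3.83 without replicate 1 of the wild-type injured group and 2.55 without replicate 2. The probe lies at chr17:23812746-23812805 (mm9).

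The injured-tubule gene Havcr1, which encodes kidney injury molecule 1, had the same order on the injured arrays. Its signal was 2.82 in the Gpr97-deficient and 1.59 and 4.23 in the wild-type injured kidneys, against 0.08 in the Gpr97-deficient and 0.79 and 1.31 in the wild-type sham kidneys. Krt20, with 4.44 in the Gpr97-deficient and 4.31 and 5.66 in the wild-type injured kidneys, kept that order too. Lcn2 did not: it was highest in the Gpr97-deficient injured kidney, at 5.56, beside 3.40 and 5.45 in the wild-type injured kidneys. All 3 injured-tubule markers were higher without overlap, with a mean level of 3.10 to 5.11 after injury and -2.38 to -0.30 after sham, and all 4 proximal tubule markers were lower without overlap, with a median change of -1.13. The 3 fibroblast markers, Col1a1, Col3a1 and Pdgfrb, were also higher without overlap, averaging 2.05 to 2.35 after injury and 0.13 to 0.77 after sham. The part of these cells in the Tnfrsf12a difference was not tested; in whole tissue, more cells of a type and more RNA per cell cannot be told apart.

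The ligand TWEAK, Tnfsf12, gave no such pattern. It lay at -5.05 in the Gpr97-deficient and -5.02 and -1.82 in the wild-type injured kidneys, against -4.91 in the Gpr97-deficient and -2.59 and -4.84 in the wild-type sham kidneys. Both arrays of slide 1, one injured and one sham, stood above the 4 arrays of slide 2, so the levels followed the slide. The pairs within slides differed by -0.14 for Gpr97 deficiency and by -0.18 and 0.77 for the wild type, and the fitted change was 0.15 (SE 1.02).

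**Figure D2:**
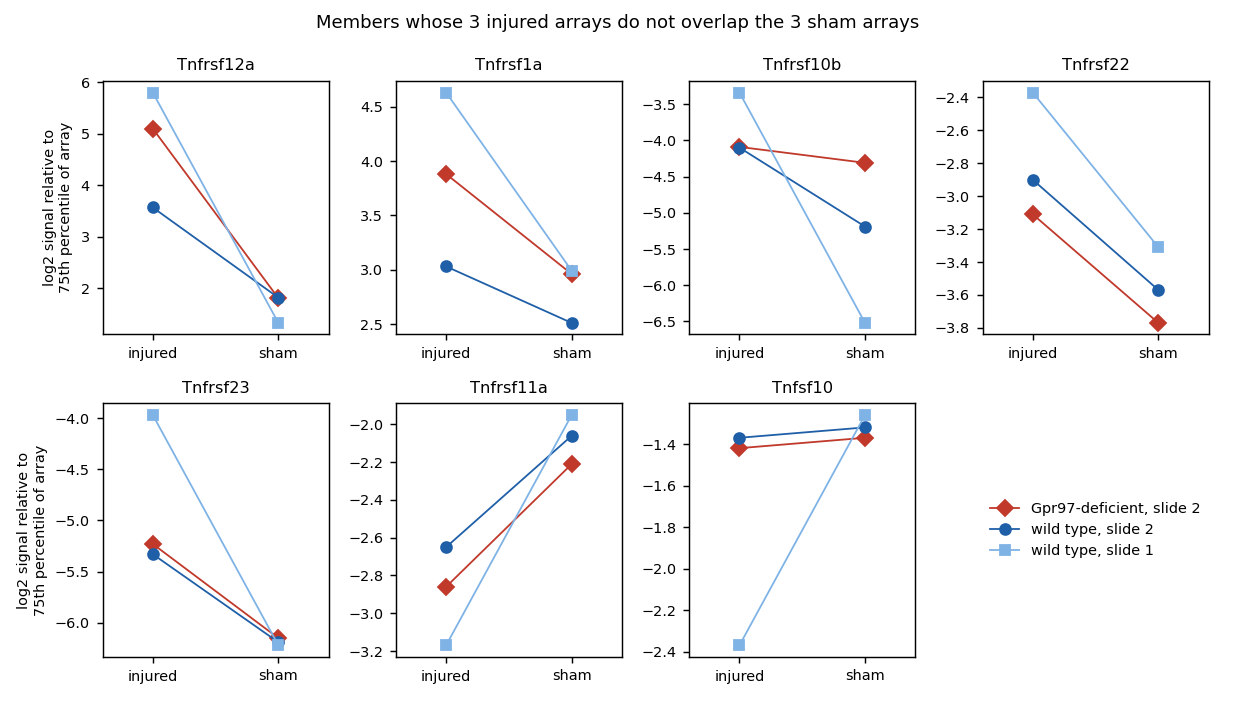
Log2 signal relative to the array's 75th percentile (vertical axes, scaled per gene) of the 7 members whose injured and sham arrays do not overlap; lines join the injured and sham arrays of a pair. Tnfrsf12a rests on 3 large differences, whereas the Tnfsf10 difference is -1.11 in the slide 1 pair and -0.05 in both others.

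TNF itself was close to the detection limit. Tnf, the founding cytokine of the family, lay at -4.86 in the Gpr97-deficient and -5.26 and -5.59 in the wild-type injured kidneys, against -5.38 in the Gpr97-deficient and -6.36 and -5.58 in the wild-type sham kidneys. Only the Gpr97-deficient injured array and replicate 1 of the wild-type injured group were well above background, so no fold is given, and the groups overlapped. The means were -5.24 ± 0.36 after injury and -5.78 ± 0.52 after sham (SD, n = 3 each).

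Tnfrsf1a encodes TNF receptor 1, which carries a death domain and is made by most cell types. Its signal was 3.88 in the Gpr97-deficient and 3.03 and 4.63 in the wild-type injured kidneys, against 2.96 in the Gpr97-deficient and 2.99 and 2.51 in the wild-type sham kidneys. The injured arrays lay above the sham arrays, but replicate 1 of the wild-type injured group cleared the highest sham array by little. The difference was 1.02 (SE 0.45), or 2.03-fold, with an adjusted p of 0.452 in limma. It was 1.47 without that replicate and 0.55 without replicate 2, and the pairs differed by 0.91 in Gpr97 deficiency and by 0.52 and 1.64 in the wild type. The order of the injured arrays was that of Tnfrsf12a and Havcr1.

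Tnfrsf1b encodes TNF receptor 2, which lacks a death domain and is found mainly on leukocytes and endothelium. Its probes disagreed. The brighter one, used for the gene, read -1.99 in the Gpr97-deficient and -1.81 and -1.67 in the wild-type injured kidneys, against -1.71 in the Gpr97-deficient and -1.55 and -1.72 in the wild-type sham kidneys. These groups overlapped, with a change of -0.16 (SE 0.16). The other probe, printed in 10 spots per array, read -2.80 in the Gpr97-deficient and -2.89 and -2.95 in the wild-type injured kidneys, against -3.85 in the Gpr97-deficient and -4.73 and -4.04 in the wild-type sham kidneys. Its groups did not overlap, but wild-type sham replicate 1 was not above background. It had a change of 1.33 (SE 0.24), an unadjusted p of 0.00249 and an adjusted p of 0.256 in limma's fit over probes.

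The first 30 of 60 bases of each Tnfrsf1b probe, in the sense of the transcript and with mm9 positions, show that they read separate stretches of the gene. No letters are in capitals.
Tnfrsf1b probe A_51_P278282, chr4:144812866-144813439, minus strand: ctggtgaactgcttcatcctggtgcagagg
Tnfrsf1b probe A_52_P228621, chr4:144804304-144804363, minus strand: gcaattgcactgtgtgctggacagaattcc

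The span of the first probe on the genome exceeds its 60 bases, so it is split on the genome, while the second reads a contiguous stretch. Both carry the same RefSeq transcript in the array's annotation. Which of them follows the transcript in this tissue was not tested. Over all 38 tested probes of members, 7 lay wholly above and 3 wholly below after injury, beside 9.87% and 11.9% of all tested probes.

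Fas and its ligand form the classical death receptor pair. Fas lay at 0.34 in the Gpr97-deficient and -0.41 and -0.35 in the wild-type injured kidneys, against -0.13 in the Gpr97-deficient and -0.51 and -0.42 in the wild-type sham kidneys, and the groups overlapped. The injury change was 0.21 (SE 0.16). Fasl, made by cytotoxic lymphocytes, was above background on the slide 2 arrays alone. It read -4.52 in the Gpr97-deficient and -5.06 and -6.45 in the wild-type injured kidneys, against -5.16 in the Gpr97-deficient and -5.32 and -4.35 in the wild-type sham kidneys, with a change of -0.40 (SE 0.56).

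The mouse TRAIL receptor Tnfrsf10b, a death domain receptor, was dim but had 3 probes. The brightest read -4.09 in the Gpr97-deficient and -4.10 and -3.34 in the wild-type injured kidneys, against -4.31 in the Gpr97-deficient and -6.52 and -5.19 in the wild-type sham kidneys. Groups did not overlap, yet the Gpr97-deficient pair differed by 0.22 alone, beside 1.09 and 3.18 in the wild-type pairs. The change was 1.50 (SE 0.58) with an adjusted p of 0.406 in limma. The other probes had changes of 1.45 and 1.14, and the last of these had overlapping groups. The lowest sham array was not above background. With all dim signals raised to -4.41, the highest of the arrays' lowest signals well above background, the change was 0.53.

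**Figure D3:**
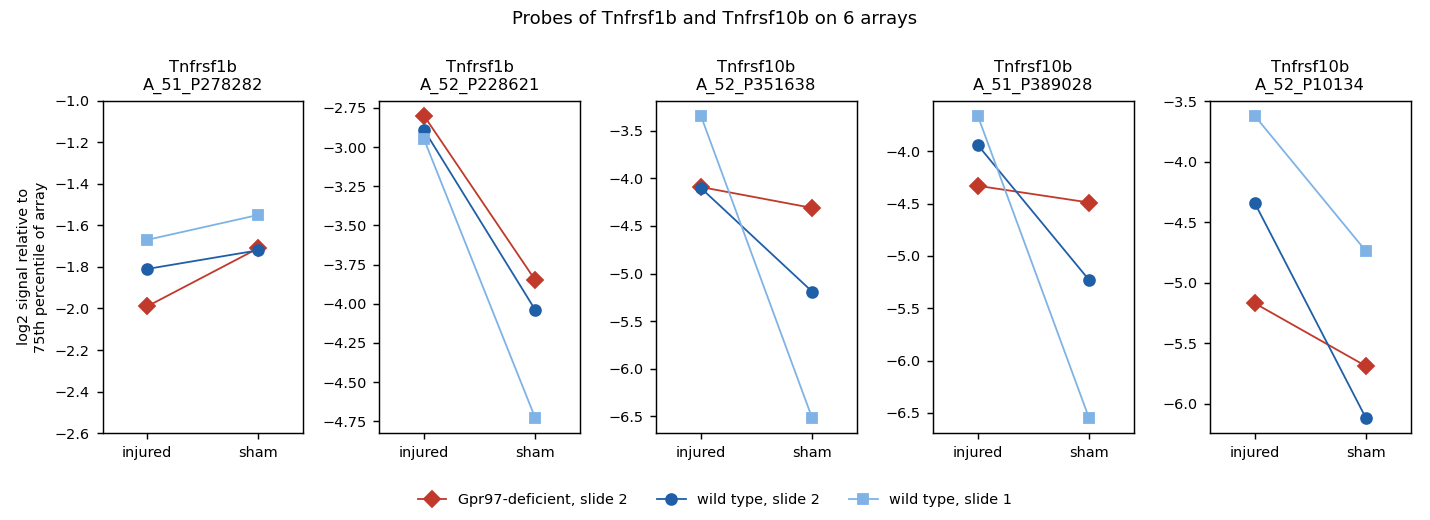
Log2 signal relative to the array's 75th percentile (vertical axes, scaled per probe) of the 2 Tnfrsf1b and 3 Tnfrsf10b probes; lines join the injured and sham arrays of a pair. One Tnfrsf1b probe differs by -0.16 and the other by 1.33, while the 3 Tnfrsf10b probes differ by 1.50, 1.45 and 1.14.

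Its ligand Tnfsf10, TRAIL, read -1.42 in the Gpr97-deficient and -1.37 and -2.37 in the wild-type injured kidneys, against -1.37 in the Gpr97-deficient and -1.26 and -1.32 in the wild-type sham kidneys. At 2 decimals the highest injured and the lowest sham array are level, and the size of the difference rests on replicate 2 of the wild-type injured group. The change was -0.40 (SE 0.31), and -0.07 without that replicate.

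Tnfrsf22 and Tnfrsf23 are mouse decoy receptors for TRAIL without a functional death domain, encoded side by side on chromosome 7 with no protein-coding gene between them. Tnfrsf22 lay at -3.11 in the Gpr97-deficient and -2.90 and -2.37 in the wild-type injured kidneys, against -3.77 in the Gpr97-deficient and -3.31 and -3.57 in the wild-type sham kidneys. The groups did not overlap and the pairs differed evenly, by 0.66 in Gpr97 deficiency and by 0.67 and 0.94 in the wild type. The change was 0.76 (SE 0.21), or 1.69-fold, with an adjusted p of 0.329 in limma.

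Tnfrsf23 lay at -5.23 in the Gpr97-deficient and -5.33 and -3.97 in the wild-type injured kidneys, against -6.15 in the Gpr97-deficient and -6.22 and -6.19 in the wild-type sham kidneys. No sham array was above background, and neither was wild-type injured replicate 1, so no fold is given. With all dim signals raised to -4.41 the difference was 0.15 on the log2 scale. The limma adjusted p was 0.336. The probes of both genes share at best 22 of 54 aligned bases. Tnfrsf26, the neighbouring receptor gene, had a difference of -0.10 with overlapping groups.

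The remaining death domain receptors went separate ways. Tnfrsf25, death receptor 3 of T cells, read -1.13 in the Gpr97-deficient and -0.36 and -0.83 in the wild-type injured kidneys, against -0.59 in the Gpr97-deficient and 0.28 and -0.13 in the wild-type sham kidneys. The groups overlapped, since replicate 1 of the wild-type injured group lay above the Gpr97-deficient sham kidney, but each injured array was below the sham array of its pair, and the change was -0.63 (SE 0.22; adjusted p = 0.374 in limma). Tnfrsf21, death receptor 6, had 3.59 in the Gpr97-deficient and 3.59 and 3.01 in the wild-type injured kidneys, against 3.57 in the Gpr97-deficient and 2.99 and 3.20 in the wild-type sham kidneys, a change of 0.14.

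Within the RANK system, known from bone and from epithelium, only the receptor was measurable throughout. Tnfrsf11a, RANK, lay at -2.86 in the Gpr97-deficient and -2.65 and -3.17 in the wild-type injured kidneys, against -2.21 in the Gpr97-deficient and -1.95 and -2.06 in the wild-type sham kidneys. The groups did not overlap. The change was -0.82 (SE 0.20), or 0.567-fold, with an adjusted p of 0.308 in limma, and the pairs differed by -0.65 in Gpr97 deficiency and by -0.59 and -1.22 in the wild type. A second, dimmer probe had a change of -0.46 with overlapping groups.

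The RANK ligand Tnfsf11 was above background on no array. The soluble decoy of RANK ligand, osteoprotegerin (Tnfrsf11b), lay at -5.39 in the Gpr97-deficient and -5.52 and -4.62 in the wild-type injured kidneys, against -3.92 in the Gpr97-deficient and -5.88 and -4.60 in the wild-type sham kidneys. It was above background on 3 arrays, its groups overlapped, and its change was -0.38 (SE 0.55).

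Among the B cell survival factors, BAFF (Tnfsf13b) read -2.35 in the Gpr97-deficient and -2.22 and -2.95 in the wild-type injured kidneys, against -2.74 in the Gpr97-deficient and -2.77 and -3.30 in the wild-type sham kidneys. The groups overlapped, with a change of 0.43 (SE 0.27). A second probe, annotated to a different transcript and above background on 3 arrays, was lower on every injured array, by -0.56. The BAFF receptor Tnfrsf13c was above background on 1 array and was not tested. Tnfrsf13b, TACI, lay at -5.30 in the Gpr97-deficient and -5.18 and -5.85 in the wild-type injured kidneys, against -4.50 in the Gpr97-deficient and -5.30 and -4.95 in the wild-type sham kidneys, with a change of -0.53 (SE 0.26).

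Cd40, the costimulatory receptor of antigen-presenting cells, had overlapping groups. It read -3.78 in the Gpr97-deficient and -3.98 and -4.40 in the wild-type injured kidneys, against -3.91 in the Gpr97-deficient and -4.57 and -3.87 in the wild-type sham kidneys; the change was 0.06 (SE 0.25).

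The lymphotoxin system organises lymphoid tissue. The receptor Ltbr lay at 3.78 in the Gpr97-deficient and 3.43 and 3.85 in the wild-type injured kidneys, against 3.49 in the Gpr97-deficient and 3.33 and 3.30 in the wild-type sham kidneys. The groups overlapped by replicate 1 of the wild-type injured group, and each pair was higher after injury, with a change of 0.31 (SE 0.18). Ltb, a subunit of its ligand, ran at -2.76 in the Gpr97-deficient and -1.87 and -2.74 in the wild-type injured kidneys, against -2.05 in the Gpr97-deficient and -3.53 and -0.10 in the wild-type sham kidneys.

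The highest Ltb level was that of wild-type sham replicate 2. The 5 T cell markers with a probe averaged -2.53 on that array and -4.70 to -3.69 on the other 5 arrays. Cd4 was nearly level, at -4.44 there and -4.69 to -4.43 elsewhere. Natural killer cell markers also averaged highest on that array, at -3.26. That average rested on Nkg7, at 0.42, and Klrb1c, at -4.43. Ncr1 went the other way, at -5.78 and not above background there, against -3.65 and -3.88 on slide 1. B cell markers did not, with -4.70 there against -4.41 on wild-type sham replicate 1. Nor did plasma cell markers, with 0.16 there against 0.52 on wild-type injured replicate 1. The part of lymphocytes in the Ltb levels was not tested. The injury change of Ltb was -0.56 (SE 0.92), and Lta, the other subunit gene, was above background on no array.

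Tnfrsf14, a receptor of T cell costimulation and inhibition, read -4.60 in the Gpr97-deficient and -7.19 and -4.79 in the wild-type injured kidneys, against -5.02 in the Gpr97-deficient and -4.05 and -3.30 in the wild-type sham kidneys. The groups overlapped, with a change of -1.41 (SE 0.88). Overlap was also seen for Tnfrsf18 (GITR), Tnfrsf19, Tnfsf9, Tnfsf14 and Tnfsf15, whose changes ran from -0.97 (SE 0.65) for Tnfrsf19 to 0.64 (SE 0.48) for Tnfsf9.

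By role, the 5 death domain receptors were all tested, and 4 had a higher and 1 a lower injured array in each of the 3 pairs. Over all genes, 19.6% were higher and 25.3% lower in each pair. Among the 4, the smallest pair difference was 0.01 for Fas and 0.02 for Tnfrsf21. Of the 10 ligands tested, 8 had mixed signs over the pairs, 1 (Tnf) was higher in each and 1 (Tnfsf10) lower in each. Of 10 TRAF-binding receptors tested, 2 were higher in each pair, 3 lower in each and 5 mixed. The 4 decoy or orphan receptors had 2 higher in each and 2 mixed. Tnf and Tnfrsf23, counted here as higher, were above background on 2 injured arrays each and on no sham array. Median changes were 0.21 for death domain receptors, 0.01 for ligands, -0.05 for TRAF-binding receptors and 0.33 for decoy and orphan receptors. The neutrophil markers averaged -0.83 to 0.12 on the injured arrays, against 0.07 for the Gpr97-deficient sham kidney and -2.93 and -3.04 for the wild-type sham kidneys; their part in the members' levels was not tested.

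Downstream of the receptors, most listed NF-kB genes were higher on every injured array. Of 22 listed subunits, inhibitors and genes known to be induced by NF-kB, 20 were tested, and 16 lay wholly above on the injured arrays and 1, Sod2 (-0.61), wholly below, beside the 10.1% and 12.4% of all genes. No sham array measured Cxcl2 above background. The median change of the list was 1.16, or 0.83 with the Cxcl2 sham levels raised to each array's lowest signal well above background. None of them, and 0% of all genes, passed an adjusted p under 0.05. At an unadjusted p under 0.05 limma had 11 higher and 1 lower, beside 5.77% and 6.51% of all genes. Cxcl2 is in the counts of 16 and 11, but passed the filter through the injured arrays alone, which favoured its place there. Requiring all 6 arrays above background left 15 wholly above. This list holds targets of many receptors besides those of the TNF family. It was chosen with earlier results of these data known, so its counts are not independent of them.

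Relb, the subunit that pairs with the Nfkb2 product in the non-canonical pathway, lay at 1.09 in the Gpr97-deficient and 0.53 and 1.20 in the wild-type injured kidneys, against -0.55 in the Gpr97-deficient and -0.90 and -0.72 in the wild-type sham kidneys. Its change was 1.66 (SE 0.23; adjusted p = 0.257 in limma). Nfkb2 lay at 0.85 in the Gpr97-deficient and 0.56 and 0.81 in the wild-type injured kidneys, against -0.59 in the Gpr97-deficient and -1.19 and -0.60 in the wild-type sham kidneys, a change of 1.54 (SE 0.22). Both separated the groups by more than the spread of either. Rela, Nfkb1 and Tnfaip3, a feedback inhibitor, had smaller changes of 0.50, 0.33 and 0.44.

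The largest difference among these lists was that of the neutrophil chemokine Cxcl1. It read 0.68 in the Gpr97-deficient and -0.29 and 2.64 in the wild-type injured kidneys, against -3.83 in the Gpr97-deficient and -2.64 and -3.97 in the wild-type sham kidneys, a change of 4.49 (SE 0.84; adjusted p = 0.262 in limma). The monocyte chemokine Ccl2 had a log2 difference of 2.07, Bcl3 of 1.91 and Nfkbiz of 1.47. Cxcl2 was above background on all 3 injured arrays and on no sham array. It was 1.35-fold higher with each sham level at the higher of its own signal and that array's lowest signal well above background. Csf1 had 1.45, the adhesion genes Vcam1 and Icam1 had 1.25 and 1.21, and Cxcl10 had 1.10. In each of these genes the groups did not overlap.

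**Figure D4:**
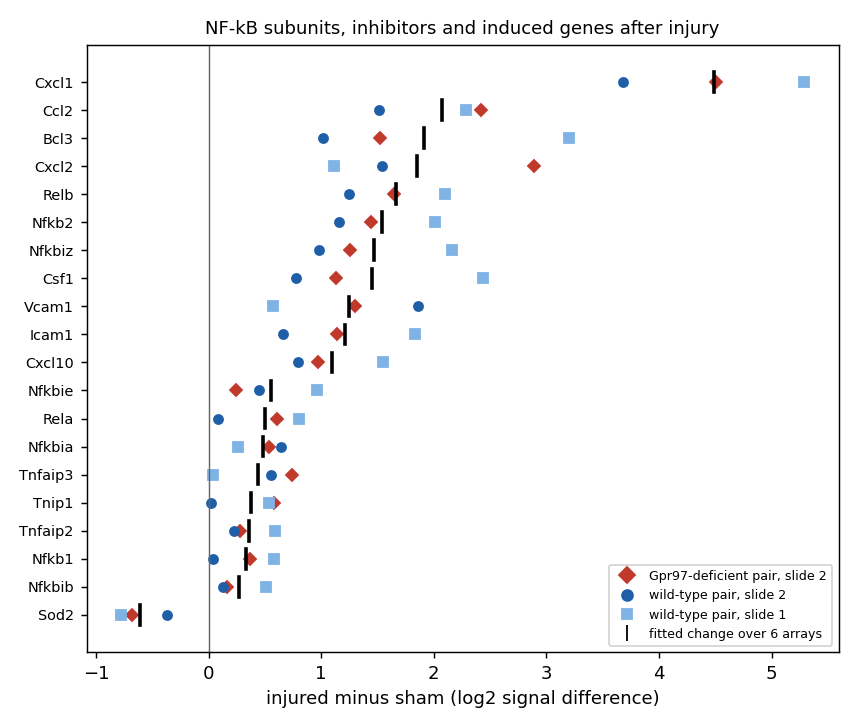
Injured minus sham log2 signal (horizontal axis) of 20 NF-kB subunits, inhibitors and induced genes in the 3 pairs (points) and in the fit over 6 arrays (bars). All points but those of Sod2 lie above 0, and Cxcl1 reaches 4.49 in the fit; the Cxcl2 points rest on sham signals that were not above background.

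Adaptors, kinases and ubiquitin ligases carry the signal between receptors and NF-kB. Of 26 tested, 8 lay wholly above and 1, the deubiquitinase Cyld (-0.33), wholly below, beside 10.1% and 12.4% of all genes, and their median change was 0.10. Birc3, an inhibitor of apoptosis protein bound to TRAF2, had 1.08 (SE 0.23), the initiator caspase Casp8 had 0.82 and Ikbkb, an IkB kinase, had 0.52. Ripk1 and Tradd, partners of TNF receptor 1, had 0.14 and 0.08. Of 8 superfamily members outside the name rule, 3 were tested, with changes of 0.76 for Ngfr, -0.58 for Edar and 0.09 for Relt, all with overlapping groups.

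Within the wild type, 2 injured arrays were set against 2 sham arrays. None of the 29 members, and 0% of all genes, passed the adjusted p in limma. The 2 injured arrays lay wholly above for 8 members and wholly below for 5, beside 17.1% and 20.4% of all genes. At an unadjusted p under 0.05, 3 members were higher and 1 lower, beside 3.34% and 3.03%. Tnfrsf12a differed by 3.11 (SE 0.83), Tnfrsf10b by 2.13 (SE 0.58) and Tnfrsf11a by -0.90 (SE 0.29). The Tnfrsf10b difference includes wild-type sham replicate 1, at -6.52, which was not above background. Tnfrsf23 was the other member with an unadjusted p under 0.05, but it was above background on 1 of these 4 arrays. Tnfrsf14 was above background on neither wild-type injured array and on 1 of the 2 wild-type sham arrays, so no fold is given.

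The Gpr97-deficient pair has 1 array per surgery and allows no test. At least 2-fold differences were seen for 2 members higher and 3 lower, beside 4.6% and 5.27% of all genes. Tnfrsf12a was 3.30 higher on the log2 scale. The other higher member was the dim Tnfsf9, and the 3 lower ones were Tnfrsf11b, Tnfrsf19 and Tnfsf18, all dim. Tnfsf18 was not above background on the injured array of this pair. The test of the difference between the genotypes' injury changes had 0 members at an adjusted p under 0.05, beside 0% of all genes. At an unadjusted p there were 0 in either direction, beside 0.612% higher and 0.872% lower. For Tnfrsf12a that difference was 0.18 (SE 1.43), an error larger than the difference itself.

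Between genotypes, Gpr97-deficient and wild-type kidneys were set against each other over both surgeries. None of the 29 members, and 0% of all genes, passed the adjusted p in limma. Both Gpr97-deficient arrays lay above all 4 wild-type arrays for 1 member, Fas, and below them for 1, Tnfrsf4, beside 4.29% and 6.47% of all genes. At an unadjusted p under 0.05 there was 1 member higher, Fas, and 1 lower, Tnfrsf25, beside 1.38% and 1.85%. No member was outside the wild-type range with means at least 2-fold apart, beside 0.525% of all genes higher and 1.64% lower.

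Fas averaged 0.10 in Gpr97-deficient kidneys (n = 2) and -0.42 in wild-type kidneys (n = 4), a genotype difference of 0.53 (SE 0.17; adjusted p = 0.994 in limma). The second, dimmer Fas probe differed by 0.26 with overlapping arrays. Tnfrsf25 averaged -0.86 in Gpr97-deficient and -0.26 in wild-type kidneys, a difference of -0.60 (SE 0.23; adjusted p = 0.994 in limma), but the Gpr97-deficient sham array lay within the wild-type range. Tnfrsf4, the costimulatory receptor OX40, had -1.55 and -1.53 in the Gpr97-deficient injured and sham kidneys, against -1.39 and -1.08 in the wild-type injured and -1.47 and -1.53 in the wild-type sham kidneys; at 2 decimals the Gpr97-deficient sham array equals the lowest wild-type array.

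Both Gpr97-deficient arrays are on slide 2, as are 2 of the wild-type arrays. Their markers differ too: red cell markers averaged 0.55 in the Gpr97-deficient sham kidney and 0.05 in wild-type injured replicate 1, and -3.31 to -0.92 on the other 4. Neutrophil markers on the Gpr97-deficient sham array, given above, were at the level of the injured arrays. Their part in the genotype values was not tested.

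Several of these values moved with the array set or the background correction. Without replicate 1 of the wild-type injured group, Tnfrsf10b differed by 1.53, Tnfrsf22 by 0.90, Tnfrsf11a by -0.94 and Tnfsf10 by -0.64. Tnfrsf10b also moved with other arrays, to 0.93 without wild-type sham replicate 1, 1.10 without wild-type injured replicate 2 and 2.13 without either Gpr97-deficient array. With normexp correction of the raw spot signals in place of the processed signal, the median change of all genes was 0.20 instead of -0.04, and Tnfrsf12a and Tnfsf13b alone lay wholly above. Tnfrsf12a then differed by 2.86, Tnfrsf1a by 0.76, Tnfrsf22 by 0.79 and Tnfrsf10b by 0.83. Tnfrsf11a and Tnfsf10 turned to 0.09 each, which is below that median.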

How the data were processed

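RNA of 6 kidneys was hybridised, labelled with Cy3, to single-colour Agilent mouse arrays. Per the file headers, the deposited scanner files hold intensity per spot, read with Feature Extraction 10.7.1.1 (slide 1) and 10.7.3.1 (slide 2), with probe positions in mm9. The authors' deposited value table follows the same signals (Spearman's rho 1, column medians 6.07 to 6.09) and was read as log2 values; it was used as an alternative, and its exact centring is unknown. The submitters' processing notes name limma, with no version.

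The processed signal was taken as log2 minus the 75th percentile of its array. Control spots (43379 of 45018 spots remained) and spots marked as outliers were left out, and spots of a probe were averaged. Probes were named by RefSeq accession (27668), symbol (5589) or synonym (471), and 7446 kept the file's name. A gene took its brightest probe, and was tested if well above background on at least 2 arrays (7 of 19611 had a missing value). Of the members, 13 had several probes. The lowest signal well above background differed between slides, at -4.43 and -4.41 on slide 1 and -5.64 to -5.43 on slide 2. These are not strict detection limits. Lta, at -4.39 on wild-type sham replicate 1, was not flagged as well above background. No array was a copy of another (0 of 15 pairs; r between 0.953 and 0.983). The number of arrays limits the precision.

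Limma 3.58.1 in R 4.3.3 (with version 1.17.8 of data.table) fitted genotype and surgery to all 6 arrays, and group means for the other comparisons, where the lone Gpr97-deficient arrays are assumed to vary like the wild-type ones. Tests are two-sided with Benjamini-Hochberg adjustment over all genes. The fits were tested on simulated data. Named members were the main ligand and receptor pairs and any member whose injured and sham arrays did not overlap or whose Gpr97-deficient arrays lay outside the wild-type range with means at least 2-fold apart; pathway genes without overlap were named by size, and others are named as examples. The members and lists were chosen with earlier results of these data known. Alternatives were the background correction, normalization, dim-probe filter, probe choice, variance prior, slide as a block, slide 2 alone and leaving out each array.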

Additional observations from a re-analysis of the deposited data

How the results depend on the processing

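No member passed an adjusted p under 0.05 in any of the comparisons under any alternative run. No paired analysis was possible because the labels give no replicate number that ties samples of different groups; the replicate numbers used here are names in accession order. Slide as a block was fitted instead, and the pairs within slides are given as values. Counts of members wholly above or below cannot fall when arrays are left out: they ran from 5 to 8 above and 3 to 4 below without 1 array, and were 9 and 6 on slide 2 alone. The shares of all genes were not counted for these sets, so the higher counts cannot be read as more members differing. With 2 wild-type arrays a side, 17.1% of all genes lay wholly above and 20.4% wholly below. Quantile normalization and the deposited values each gave 6 above and 2 below. These were nearly the same values, with r of 0.9999 to 1 per array, so they are not separate checks.

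Normexp correction moved most, and the cause was not tested: the members' median became 0.56 (all genes 0.20), 2 members lay wholly above and 0 below, and 1 and 0 had an unadjusted p under 0.05, higher and lower. Under it Fasl turned to 0.67, Tnfrsf11a to 0.09, Tnfrsf11b to 0.50, Tnfrsf13b to 0.59, Tnfrsf1b to 0.14 and Tnfsf10 to 0.09. Requiring all 6 arrays above background, which tests fewer genes, left 3 above, and 2 with an unadjusted p, higher. An alternative added after seeing the data, all dim signals raised to one floor, also left 2, and Tnfrsf23 had 0.15. Averaging probes turned Tnfrsf1b to 0.58 and Tnfsf13b to -0.06, and left 0 lower at an unadjusted p. On slide 2 alone Tnfsf12 was -0.16.

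Leaving out each array gave 3 to 4 members higher and 1 to 3 lower at an unadjusted p, and a members' median of -0.13 to 0.21. The change ran from -0.13 to 0.27 for Cd40, -0.92 to 0.15 for Fasl, -1.56 to 0.40 for Ltb, -0.90 to 0.17 for Tnfrsf11b and -0.80 to 1.02 for Tnfsf12, whose signs are not settled. Tnfrsf12a ran from 2.55 to 3.83.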

Other observations

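The 8 untested members included lymphocyte costimulatory receptors and their ligands. Lta, Tnfrsf8, Tnfrsf9, Tnfsf11, Tnfsf4 and Tnfsf8 were above background on no array. Tnfrsf13c and Tnfrsf17, receptors of B lineage cells, were above background on 1 array each, in both cases wild-type sham replicate 2. Tnfrsf13c read -5.17 there, and much the same on slide 1, at -5.19 in the sham and -5.16 in the injured kidney. The lowest signals well above background were higher on slide 1, at -4.43 and -4.41 against -5.64 on wild-type sham replicate 2. Tnfsf18, the GITR ligand, had the largest error of the tested members. It read -7.85 in the Gpr97-deficient and -7.51 and -3.94 in the wild-type injured kidneys, against -3.74 in the Gpr97-deficient and -6.56 and -7.88 in the wild-type sham kidneys, with an injury change of -0.37 (SE 1.54).

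Members lie in clusters on the genome: 9 of the 37 are on chromosome 4 and 7 on chromosome 17. Tnfrsf4 and Tnfrsf18, with no protein-coding gene between them, had injury changes of 0.17 and 0.31, and Tnfrsf1a and Ltbr, with 1 between them, had 1.02 and 0.31.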
